A study of Homo sapiens with 6 samples.

Results

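Transcripts of 45 genes of the G2/M transition and mitosis were followed in A375 cells, a human cutaneous melanoma line, after 6 h with cucurbitacin B (CuB) or with DMSO, the control. The genes were taken by symbol from the 58735 rows of the deposited table, by their roles in the cell cycle, and all 45 were found. They comprise mitotic cyclins, CDK1 and its regulators, Polo, Aurora and NEK kinases, spindle checkpoint and anaphase-promoting complex (APC/C) genes, kinesins, centromere and kinetochore genes, chromosomal passengers, cytokinesis genes, and TOP2A, MKI67 and FOXM1. Polyadenylated RNA was measured in 3 samples per group, as FPKM (fragments per gene, divided by the gene's length and a size for the library). The protocol gives a CuB dose of 0.2 µM while the library names give 100 nM, so the dose is uncertain. Whether replicates came from different cultures is not labelled, and the p-values cover only sample-to-sample spread, possibly technical.

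Cucurbitacin B is a plant triterpenoid. CDK1 bound to cyclin B drives entry into mitosis. WEE1 holds it back by phosphorylation, CDC25 phosphatases release it, and Polo and Aurora kinases reinforce the switch and build the spindle. The spindle checkpoint restrains CDC20 until kinetochores are attached, after which APC/C with CDC20 destroys cyclin B and securin. Many of these genes are transcribed in late S and G2 phase, under the repressing DREAM and the activating B-MYB-FOXM1 complexes. Their promoters often hold CHR elements and CCAAT boxes near the start site.

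Promoter sequence shows what the members share before any expression value. RefSeq windows of 300 bases (250 before to 50 after the start, GRCh38.p14) matched 37 of the 45 members, with 49 windows, 7 members having several. AURKA, BIRC5, BUB3, FOXM1, TPX2, TTK, UBE2C and WEE1 were not matched. A CHR (TTTGAA or TTCGAA, either strand) was found in 26 of 37 members (70.3%), against 19.5% of all 27305 genes with a window. A CCAAT box was found in 29 members (78.4%), against 39.7% of all genes, and 21 members (56.8%) held both, against 7.85%. Counted by window, a CHR was in 29 of 49 (59.2%), against 16.4% of all 35116. A CRE core (TGACG) was in 18 members (48.6%, against 28.4% of genes) and an ATF4 element (TGATG, any base, AA) in PLK3 and CDC25C alone (5.41%, against 4.46%). No member window held a CArG box (1.604% of genes) or an AP-1 site (TGACTCA or TGAGTCA; 6.05% of genes), the latter a motif added after expression values had been seen. Matches that share bases, such as a CHR and a CCAAT box of MKI67, were each counted.

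The stretches below show members that rose (CDC20, CKS2, CDC25A, PLK3, PLK2), 1 that fell (KIF20A) and 2 that did not pass the test (MKI67, PLK1), each read 5′ to 3′ on the gene's strand with motif matches in capitals. CDC20 (chr1:43358831-43358954, plus strand) shows a CHR at −65 to −60 from the start, between CCAAT boxes at −100 to −96 and −55 to −51. CKS2 (chr9:89311045-89311194, plus strand) has CCAAT boxes from −148, −70 and −52 and a reverse CHR from −29 to −24. CDC25A (chr3:48188418-48188567, minus strand) has CCAAT boxes at −110 to −106 and −58 to −54 with no CHR. MKI67 (chr10:128126424-128126573, minus strand) has a CHR at −47 to −42 and another at −29 to −24.
CDC20: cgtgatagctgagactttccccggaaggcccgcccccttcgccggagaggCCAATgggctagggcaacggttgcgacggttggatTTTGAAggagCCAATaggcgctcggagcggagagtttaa
CKS2: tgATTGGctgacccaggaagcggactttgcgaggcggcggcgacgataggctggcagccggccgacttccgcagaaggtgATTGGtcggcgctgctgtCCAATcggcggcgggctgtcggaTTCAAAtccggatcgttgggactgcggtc
CDC25A: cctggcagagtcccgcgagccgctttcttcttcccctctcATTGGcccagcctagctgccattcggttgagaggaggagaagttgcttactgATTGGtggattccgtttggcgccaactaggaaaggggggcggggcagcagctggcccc
MKI67: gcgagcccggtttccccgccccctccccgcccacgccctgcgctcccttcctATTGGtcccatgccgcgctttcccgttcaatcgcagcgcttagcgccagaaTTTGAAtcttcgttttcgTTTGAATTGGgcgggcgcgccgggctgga
In the other 4 genes GENCODE 29 starts the transcript farther upstream than RefSeq, so only 30 bases around a match are given. PLK3 (chr1:44800233-44800262, plus strand) holds the ATF4 element, from −133 to −126, and neither a CHR nor a CCAAT box. PLK2 (chr5:58460146-58460175, minus strand) holds a CRE core at −77 to −73 as its only match. KIF20A (chr5:138179006-138179035, plus strand) holds reverse CCAAT boxes at −94 to −90, shown, and −67 to −63, with no CHR. PLK1 (chr16:23678848-23678877, plus strand) holds a CHR at −29 to −24, shown, and a CCAAT box at −73 to −69.
PLK3: gagcttctgggTGATGTAAggccgggaatg
PLK2: gggcataggccgTGACGtgatgtcgcgtat
KIF20A: ttccttacgcggATTGGtagctgcaggctt
PLK1: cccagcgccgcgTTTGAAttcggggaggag
By expression call, a CHR was present in 5 of 9 members that rose, 2 of 3 that fell and 18 of 24 that did not pass. A CCAAT box was present in 7 of 9, 3 of 3 and 18 of 24. A match describes the letters in a window, not a bound site.

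Of the 45 members, 44 had a mean of at least 1 FPKM and were tested (limma on log2(FPKM + 1), two-sided, Benjamini-Hochberg adjustment over 13273 genes). With CuB 13 rose, 3 fell and 28 did not pass an adjusted p of 0.05. That is 36.4% of members, where 38.6% of all tested genes passed; 29.5% of members rose against 22.9% of all genes, and 6.82% fell against 15.6%. The members' share of changed genes was therefore near the background. At a minimum mean of 5 FPKM all 44 members were again tested, and 13 rose and 3 fell. Of the 7713 genes tested there, 2265 rose and 985 fell, so the excess of rises depends on which genes form the background. At the minimum of 1 FPKM, 19 members had an unadjusted p under 0.05. The CuB values lay wholly above the DMSO values in 17 members (29.8% of all genes) and wholly below in 3 (21.7% of all genes), 20 in all or 45.5%, against 51.5% of all genes. The median change of the members was 0.15 on the log2 scale, beside 0.05 over all genes, and their median absolute change was 0.19, beside 0.30. The gap between the 2 medians was smaller at a minimum mean of 5 FPKM (0.15 for members, 0.13 for all genes). It was also smaller without DMSO replicate 2 (0.084 and 0.058). PLK3 and WEE1 passed with a change of at least 1 on the log2 scale, as did 7.24% of all genes. In RNA from a whole culture, a changed share of cells in G2 or mitosis and changed RNA per cell cannot be told apart.

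The direction of the list differed between some ways of scaling the libraries. With libraries scaled by the median of their gene ratios, 13 members rose and 3 fell, as reported, with a members' median of 0.148. With voom 10 rose and 4 fell, with a members' median of 0.0918. The deposited values imply a library size of 1.03 to 1.04 times the fragment total in DMSO but 0.914 to 0.927 times in CuB. With equal fragment totals, which moved the median of all genes by −0.14 on the log2 scale, 6 members rose and 7 fell, and the members' median was −0.01, still 0.07 above that of all genes. With quantile normalization the counts were again 6 and 7 and the members' median was −0.06, which is −0.03 relative to all genes. The 6 that rose under both were PLK3, WEE1, CDC20, PLK2, CDC25A and CKS2, and the 7 that fell under both were KIF20A, CDC25C, TOP2A, CCNB1, MAD2L1, CENPE and CENPF. The other 7 rises reported here (PLK4, AURKA, UBE2C, TPX2, KIF4A, AURKB and CDCA8) passed under neither. PLK3, WEE1, CDC20, PLK2, CDC25A, CKS2, KIF20A and CDC25C, 8 members in all, were called in the same direction under all 13 other settings and without each of the 6 libraries in turn.

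**Figure D1:**
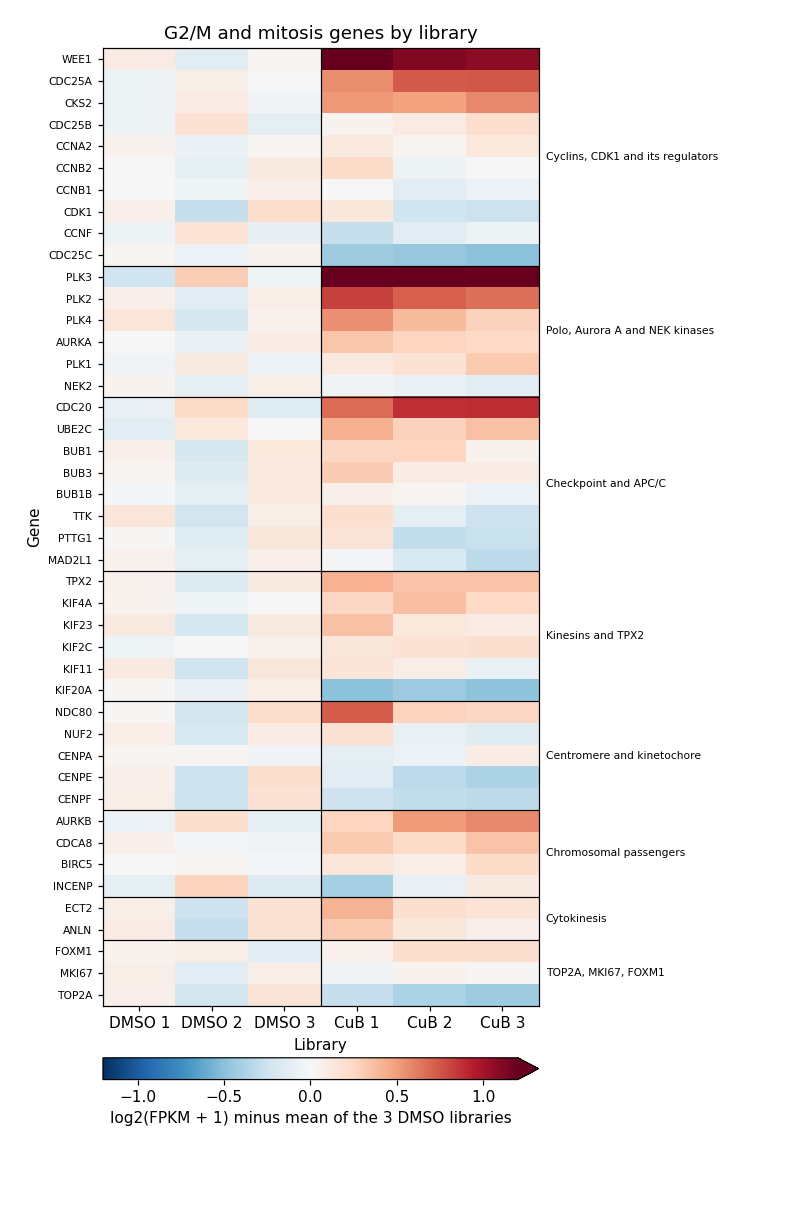
Each tested G2/M and mitosis gene (rows, by role) in each of the 6 libraries (columns), coloured by log2(FPKM + 1) minus the mean of the 3 DMSO libraries; colours stop at 1.2 and higher values carry the darkest red. PLK3 and WEE1 are the darkest rows in all 3 CuB libraries, while most other rows stay pale, and DMSO replicate 2 departs from replicates 1 and 3 in many rows.

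Among cyclins, CDK1 and its direct regulators, 3 of 10 rose (WEE1, CDC25A, CKS2), CDC25C fell and 6 did not pass. This count and those of the other roles below can be read against 22.9% higher and 15.6% lower over all genes. Each role holds only 2 to 10 tested members, and differences between roles were not tested. WEE1 stood at 7.06, 5.86 and 6.68 FPKM in DMSO replicates 1 to 3 and at 16.8, 15.2 and 14.9 in CuB replicates 1 to 3. Every CuB library was above every DMSO library for this inhibitory kinase of CDK1, located at chromosome 11, 9573681 to 9593457 (GRCh38). Its mean went from 6.54 ± 0.611 to 15.6 ± 1.02 FPKM (SD, n = 3 each), 2.39-fold, a change of 1.14 ± 0.0952 (SE) on the log2 scale (adjusted p = 2.01e-04). Of the 3 CDC25 phosphatases, which remove the phosphates that WEE1 adds, CDC25A rose, CDC25C fell and CDC25B did not pass. CDC25A stood at 14.8, 16.3 and 15.5 FPKM in DMSO replicates 1 to 3 and at 23.3, 26.5 and 26.7 in CuB replicates 1 to 3. CDC25A, which also acts at G1/S (chromosome 3, 48157146 to 48188402), rose by 0.68 ± 0.0874 (SE) on the log2 scale (adjusted p = 0.00130), with no overlap of the groups. CDC25C stood at 6.21, 5.75 and 6.28 FPKM in DMSO replicates 1 to 3 and at 4.25, 4.17 and 4.03 in CuB replicates 1 to 3. CDC25C, the phosphatase of mitotic entry (chromosome 5, 138285265 to 138338355), was low in all libraries and fell by 0.46 on the log2 scale, 1.46-fold lower in means, SE 0.0798 (adjusted p = 0.00455), again with no overlap. CDC25C shares 8.78% of its exon bases with FAM53C on the opposite strand, and the library kit does not mark strand. CDC25B went from 45.5 ± 5.07 to 49.2 ± 2.82 FPKM, the groups overlapped, and the 95% interval of its log2 change was -0.12 to 0.35 (adjusted p = 0.402).

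Ratios between the transcripts of these enzymes were compared between the groups. The gene length behind each FPKM is that of all annotated exons merged, 9239 bases for WEE1 and 3338 for CDC25C. The size of a ratio depends on these lengths, so only its change between groups is read here. The ratio of CDC25C to WEE1, both in FPKM, was 0.933 ± 0.0506 in DMSO and 0.266 ± 0.0111 in CuB (SD, n = 3 each). CDC25A to WEE1 was 2.39 ± 0.349 and 1.64 ± 0.222, and CDC25B to WEE1 was 7.05 ± 1.47 and 3.16 ± 0.369. All 3 ratios were lower in every CuB library than in every DMSO library. They share the denominator WEE1, which rose 2.39-fold, while CDC25A itself rose and CDC25B did not pass. The 3 ratios are thus not separate observations, and those of CDC25A and CDC25B restate the rise of WEE1. CCNB1 to CDK1 was 3.61 ± 0.532 and 3.75 ± 0.425, with overlapping groups. These pairs, with KIF20A to KIF23 described further on, were picked after the values had been seen. In exact two-sided permutation tests the 3 ratios to WEE1 reached p = 0.1, the smallest that 3 against 3 can give (0.125 adjusted over 5 pairs), and CCNB1 to CDK1 gave p = 0.9, so none passed.

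CKS2, a small subunit that docks CDK substrates (chromosome 9, 89311198 to 89316703), was among the most abundant members. CKS2 stood at 99.4, 111 and 101 FPKM in DMSO replicates 1 to 3 and at 149, 146 and 156 in CuB replicates 1 to 3. The groups did not overlap, and it rose by 0.53 ± 0.0729 (SE) on the log2 scale (adjusted p = 0.00178). The cyclin and kinase at the centre of the switch did not pass. CCNB1 stood at 102, 99.2 and 108 FPKM in DMSO replicates 1 to 3 and at 103, 93.5 and 98.0 in CuB replicates 1 to 3. For cyclin B1 the groups overlapped, and the 95% interval of the log2 change was -0.24 to 0.10 (adjusted p = 0.492). With quantile normalization and with equal fragment totals, but under no other setting, it was called lower (adjusted p = 0.017 and 0.0365). CDK1 stood at 30.05, 23.5 and 33.5 FPKM in DMSO replicates 1 to 3 and at 31.5, 24.1 and 23.9 in CuB replicates 1 to 3. CDK1 varied widely within both groups, with a 95% interval of -0.50 to 0.26 (adjusted p = 0.580). CCNA2, CCNB2 and CCNF, cyclins of S phase to mitosis, had log2 changes of 0.09, 0.05 and -0.16, and none passed.

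**Figure D2:**
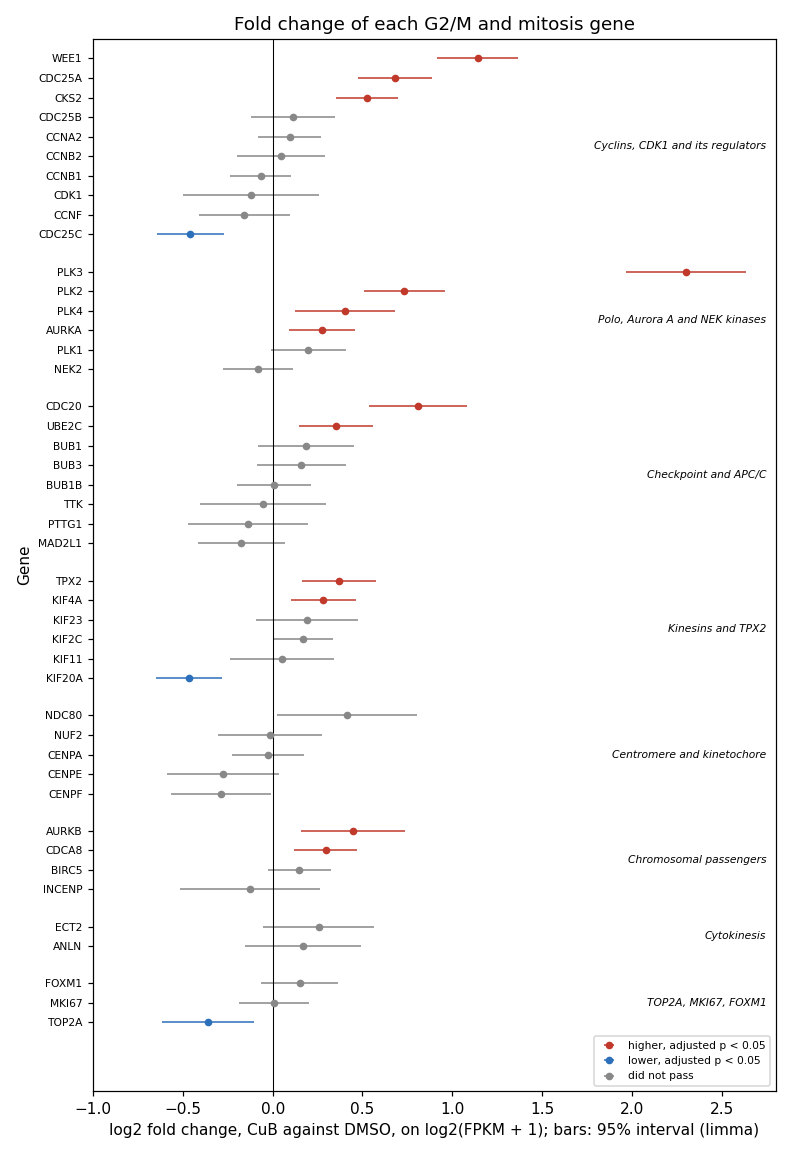
The log2 change (CuB against DMSO, on log2(FPKM + 1), horizontal axis) of the 44 tested members, grouped by role, with 95% intervals from limma and colour for the call. PLK3 (2.30) and WEE1 (1.14) lie apart on the right, KIF20A (−0.47), CDC25C (−0.46) and TOP2A (−0.36) are the members that fell, and most intervals in grey include 0.

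Of the Polo, Aurora A and NEK kinases, 4 of 6 rose and none fell, where 22.9% of all genes rose and 15.6% fell. PLK3 stood at 1.84, 3.11 and 2.25 FPKM in DMSO replicates 1 to 3 and at 14.7, 16.2 and 15.7 in CuB replicates 1 to 3. PLK3, a stress-responsive Polo kinase (chromosome 1, 44800225 to 44805990), was the lowest tested member in DMSO and showed the largest change of the 44 tested members. Its mean went from 2.40 ± 0.649 to 15.6 ± 0.745 FPKM, 6.49-fold, a change of 2.30 ± 0.141 (SE) on the log2 scale (adjusted p = 5.12e-05). The DMSO values rest on few fragments, 98 in the library with the fewest. PLK2 stood at 8.27, 7.07 and 8.41 FPKM in DMSO replicates 1 to 3 and at 14.7, 13.6 and 13.03 in CuB replicates 1 to 3. PLK2, which acts in centriole duplication and is also stress-inducible (chromosome 5, 58453982 to 58460260), had no overlap between groups and rose by 0.73 ± 0.0953 (SE) on the log2 scale (adjusted p = 0.00138).

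PLK4 stood at 10.96, 8.46 and 10.2 FPKM in DMSO replicates 1 to 3 and at 14.8, 13.1 and 12.2 in CuB replicates 1 to 3. PLK4, the kinase that starts centriole duplication, rose by 0.40 ± 0.119 (SE) (adjusted p = 0.0344), but it was not called when DMSO replicate 2 or 3, or else CuB replicate 1 or 2, was left out (adjusted p between 0.051 and 0.0954). PLK1 stood at 32.3, 35.9 and 31.7 FPKM in DMSO replicates 1 to 3 and at 36.0, 37.5 and 41.5 in CuB replicates 1 to 3. PLK1, the main mitotic Polo kinase, stood higher in every CuB library, though by little, with a 95% interval of -0.01 to 0.41 for its log2 change (adjusted p = 0.120), and it passed without DMSO replicate 2 (adjusted p = 0.0475). It shares 12.5% of its exon bases with genes on the opposite strand, among them ERN2. AURKA stood at 43.1, 40.6 and 46.1 FPKM in DMSO replicates 1 to 3 and at 54.7, 51.8 and 51.1 in CuB replicates 1 to 3. Aurora A, which matures centrosomes, rose by 0.27 ± 0.0780 (SE) (adjusted p = 0.0299). Without DMSO replicate 1 or any of the CuB replicates it was not called (adjusted p between 0.0679 and 0.104). NEK2, a centrosome kinase, had a log2 change of -0.08 (adjusted p = 0.458).

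**Figure D3:**
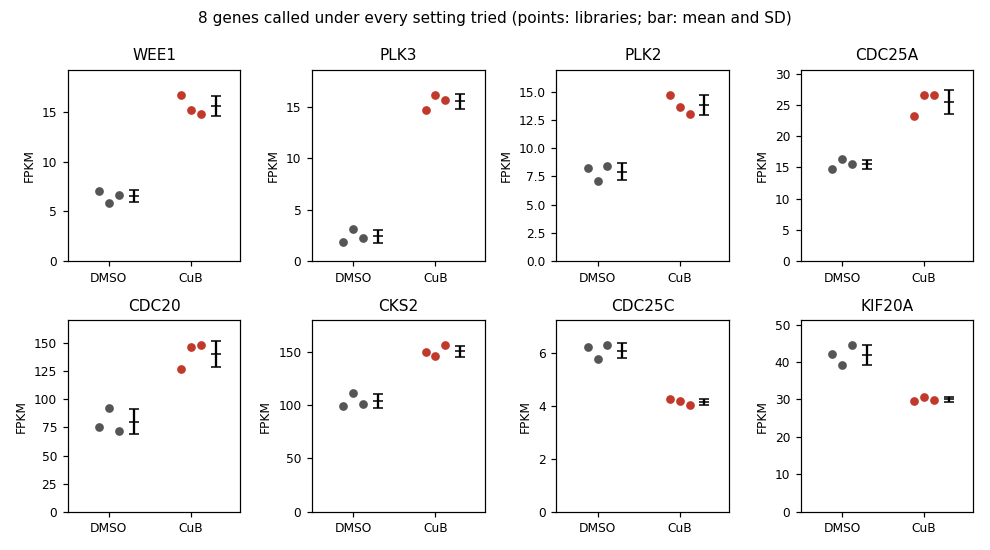
FPKM (vertical axes from 0) of the 8 members called under every setting and with each library left out, by group; points are libraries, and the bar beside them is the mean with SD, n = 3. In each panel the 3 CuB points lie wholly above the DMSO points (WEE1, PLK3, PLK2, CDC25A, CDC20, CKS2) or wholly below them (CDC25C, KIF20A).

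Among checkpoint and APC/C genes 2 of 8 rose, both on the APC/C side, and none fell. CDC20 stood at 75.3, 92.6 and 71.9 FPKM in DMSO replicates 1 to 3 and at 127, 147 and 148 in CuB replicates 1 to 3. CDC20, the APC/C activator that the checkpoint restrains (chromosome 1, 43358955 to 43363203), went from 80.0 ± 11.1 to 140.5 ± 11.8 FPKM, 1.76-fold, with no overlap, a change of 0.81 ± 0.116 (SE) on the log2 scale (adjusted p = 0.00205). UBE2C, the ubiquitin-conjugating enzyme that works with APC/C, went from 76.5 ± 6.75 to 97.9 ± 4.95 FPKM (log2 change 0.35, adjusted p = 0.0183). It was not called when DMSO replicate 1 or 3, or else CuB replicate 1 or 3, was left out (adjusted p between 0.0531 and 0.0774). The checkpoint genes BUB1, BUB1B, BUB3, MAD2L1 and TTK, whose products hold back CDC20, had log2 changes of 0.18, 0.01, 0.16, -0.17 and -0.05, and none passed. BUB1B shares 10.2% of its exon bases with the read-through gene BUB1B-PAK6. Securin (PTTG1), an APC/C substrate, went from 46.3 ± 4.57 to 42.3 ± 7.84 FPKM with overlap (log2 change -0.14, adjusted p = 0.471).

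Of 5 kinesins and TPX2, 2 rose and 1 fell. KIF20A stood at 42.2, 39.2 and 44.4 FPKM in DMSO replicates 1 to 3 and at 29.6, 30.8 and 29.7 in CuB replicates 1 to 3. KIF20A, the kinesin of the central spindle and cytokinesis (chromosome 5, 138178719 to 138187715), went from 41.9 ± 2.63 to 30.03 ± 0.663 FPKM, 1.40-fold lower, and fell by 0.47 on the log2 scale (SE 0.0771, adjusted p = 0.00365). No CuB library reached the lowest DMSO library. Its ratio to KIF23, another central spindle kinesin, was 1.98 ± 0.161 in DMSO and 1.24 ± 0.132 in CuB, lower in every CuB library (exact permutation p = 0.1, adjusted p = 0.125, pair picked after the values had been seen). KIF20A shares 5.05% of its exon bases with BRD8 and CDC23 on the opposite strand. TPX2, which activates Aurora A on spindle microtubules, went from 83.1 ± 7.81 to 107 ± 3.15 FPKM (log2 change 0.37, adjusted p = 0.0151; 0.0547 without CuB replicate 2). KIF4A, a chromosome-bound kinesin, went from 23.5 ± 0.808 to 28.8 ± 1.45 FPKM (log2 change 0.28, adjusted p = 0.0249). KIF4A was not called when DMSO replicate 1 or 3, or else CuB replicate 2 or 3, was left out (adjusted p between 0.0579 and 0.121). KIF11, KIF23 and KIF2C had log2 changes of 0.05, 0.19 and 0.17 and did not pass, with no overlap between groups for KIF2C (adjusted p = 0.0961).

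None of the 5 centromere and kinetochore members passed. NDC80, a microtubule-binding kinetochore subunit, stood at 11.9 ± 1.92 FPKM in DMSO and 16.3 ± 3.39 in CuB with no overlap. Its change of 0.41 was the largest absolute change among the 28 members that did not pass (adjusted p = 0.0889). NDC80 was called higher with the GC correction (adjusted p = 0.0117) and with the replicate block and the GC correction (0.0182). CENPF and CENPE, large proteins of the outer kinetochore, had log2 changes of -0.29 and -0.28 (adjusted p = 0.0952 and 0.139). Both were called lower without DMSO replicate 2 (adjusted p = 0.00437 for CENPF and 0.0197 for CENPE), with quantile normalization (0.0184 and 0.0493), with equal fragment totals (0.0216 and 0.0365) and with the GC correction (0.00207 and 0.00163). CENPF was also called lower with libraries rescaled to 1 sum (adjusted p = 0.0387) and with voom (0.0315). CENPA, the centromeric histone, and NUF2, the partner of NDC80, had changes of -0.03 and -0.01 on the log2 scale.

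Of the 4 chromosomal passengers, which correct faulty attachments and guide cytokinesis, AURKB and CDCA8 rose. AURKB stood at 25.8, 31.2 and 25.0 FPKM in DMSO replicates 1 to 3 and at 32.8, 39.1 and 41.0 in CuB replicates 1 to 3. The groups did not overlap, and the kinase of the complex rose by 0.45 ± 0.122 (SE) on the log2 scale (adjusted p = 0.0258). When DMSO replicate 1 or 3, or else CuB replicate 2 or 3, was left out it was not called (adjusted p between 0.0803 and 0.0945). CDCA8 (borealin) went from 29.3 ± 1.16 to 36.3 ± 1.51 FPKM (log2 change 0.30, adjusted p = 0.0193), and without DMSO replicate 1 or 3 or any of the CuB replicates it was not called (adjusted p between 0.0515 and 0.0734). The scaffold INCENP went from 40.8 ± 7.004 to 37.4 ± 6.67 FPKM with overlap (adjusted p = 0.578), and BIRC5 (survivin) from 25.6 ± 0.343 to 28.5 ± 1.42 without overlap (adjusted p = 0.154).

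Neither tested cytokinesis member passed. The contractile ring scaffold ANLN and the RhoA activator ECT2 had log2 changes of 0.17 and 0.26 (adjusted p = 0.360 and 0.163). PRC1, the microtubule bundler of the central spindle, was the 1 member under the filter, at 0.518 ± 0.0913 FPKM in DMSO and 0.538 ± 0.081 in CuB, from 135 and 131 fragments over the 3 libraries of each group. Of its exon bases 58.4% lie under other genes, AC068831.7 on the same strand and PRC1-AS1 on the opposite strand. AC068831.7 stood at 1.62 ± 0.302 and 1.41 ± 0.147 FPKM. How shared fragments were assigned is not given in the sources used here, so the level of PRC1 is uncertain. Among the tested members, 16 share exon positions with another gene, FOXM1 the most at 15.9% (ITFG2, opposite strand).

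TOP2A stood at 126, 104 and 135 FPKM in DMSO replicates 1 to 3 and at 99.8, 93.1 and 89.6 in CuB replicates 1 to 3. TOP2A, the topoisomerase that untangles chromosomes, was the most abundant member in DMSO, and it fell by 0.36 on the log2 scale (SE 0.109, adjusted p = 0.0371) with no overlap. Without DMSO replicate 1 or 3 or any of the CuB replicates it was not called (adjusted p between 0.0515 and 0.122). MKI67 stood at 57.0, 49.4 and 57.0 FPKM in DMSO replicates 1 to 3 and at 53.0, 55.9 and 54.9 in CuB replicates 1 to 3. The proliferation marker MKI67 overlapped between groups, and its log2 change of 0.01 had a 95% interval of -0.19 to 0.20 (adjusted p = 0.953). FOXM1 stood at 29.4, 30.2 and 26.0 FPKM in DMSO replicates 1 to 3 and at 29.5, 32.9 and 33.0 in CuB replicates 1 to 3. FOXM1, a transcription factor of this gene programme, overlapped too, with an interval of -0.06 to 0.37 (adjusted p = 0.228).

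The order of levels, which in FPKM also depends on the merged exon lengths, was largely kept. Across the 44 tested members the DMSO and CuB means had a Spearman correlation of 0.958, a description over genes that share libraries. In DMSO the highest were TOP2A (122 ± 16.1 FPKM), CKS2 (104 ± 6.41) and CCNB1 (103 ± 4.27). The means of CKS2 and CCNB1 differed by less than their spread. The range of TOP2A over the DMSO libraries overlapped those of both. In CuB the highest were CKS2 (150.2 ± 5.07), CDC20 (140 ± 11.8) and TPX2 (107 ± 3.15). KIF20A moved from rank 13 to rank 23, CENPE from 34 to 42, AURKB from 25 to 17, PLK3 from 44 to 37 and WEE1 from 42 to 36. Members were more abundant than most genes, with a median of 30.7 FPKM against 6.77 over all tested genes, and 38 of them averaged at least 10 FPKM in both groups.

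Much of the scatter within a group followed GC content. Across the 44 members, a library's deviation from its group mean had a Spearman correlation with transcript GC of −0.77, 0.888 and −0.788 in DMSO replicates 1 to 3 and of −0.81, 0.416 and 0.825 in CuB replicates 1 to 3. DMSO replicate 2 was the lowest DMSO library in 29 members, whose median GC was 42.1%, and the highest in 12, whose median GC was 56.5%. The change with CuB was only weakly related to GC, with a Spearman correlation of 0.221 over members and 0.0318 over all tested genes. After removing each library's GC trend, 18 members rose and 9 fell, as against 13 and 3. PLK1, KIF23, KIF2C, NDC80 and ECT2 gained a call as higher, and CCNF, NEK2, MAD2L1, CENPE, CENPF and INCENP as lower. Calls increased over all genes as well: 4080 rose and 3663 fell of 13265, as against 3046 and 2072 of 13273. The correction also moved the median log2 change of all genes from 0.0548 to 0.0034.

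**Figure D4:**
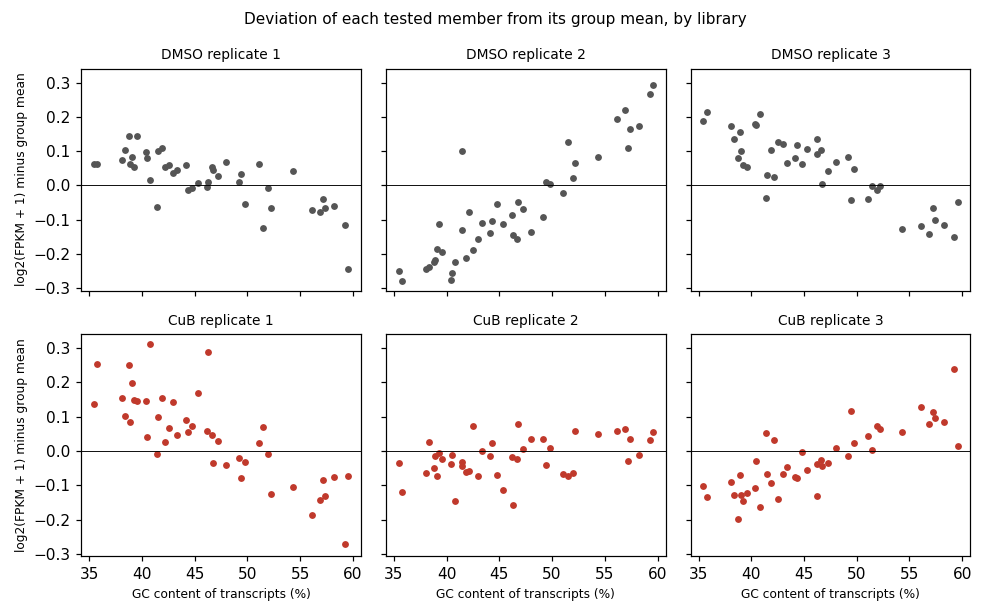
Deviation of each of the 44 tested members from its group mean (log2(FPKM + 1), vertical axis) against the GC content of its transcripts (percent, horizontal axis), 1 panel per library. The points slope down in DMSO replicates 1 and 3 and in CuB replicate 1, and up in DMSO replicate 2 and CuB replicate 3.

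Other genes of the same processes, in 7 lists of 130 genes, of which 125 were tested, were counted the same way: 34 rose and 10 fell. These are 35.2% of them, against 38.6% of all tested genes, with a median log2 change of 0.17, beside 0.05. The counts of the single lists can be read against 22.9% higher and 15.6% lower over all genes. Of 17 APC/C subunits and cofactors 3 rose and 1 fell. The chain-extending enzyme UBE2S went from 62.2 ± 22.3 to 113 ± 20.9 FPKM (adjusted p = 0.0272), FZR1, the APC/C activator of late mitosis and G1, had a log2 change of 0.65, ANAPC7 one of 0.27 and the subunit CDC26 one of -0.44. Of 20 condensin and cohesin genes 5 rose and none fell. The largest rises were in cohesin's STAG1 (0.82), condensin's NCAPH2 (0.71) and the cohesion protector CDCA5 (0.53). STAG1 shares 21.2% of its exon bases with PCCB, and CDC26 shares 17.7% with PRPF4, both on the opposite strand. Of 26 further kinetochore genes 8 rose and 2 fell. SKA1, which couples kinetochores to microtubules, went from 5.06 ± 0.318 to 11.4 ± 2.23 FPKM (adjusted p = 0.00140), CENPL and MAD1L1 had log2 changes of 0.68 and 0.58, and SPC24 and SKA2 had changes of -0.56 and -0.47. Of 27 spindle and centrosome genes 3 rose (STIL 0.61, CEP152 0.51 and CIT 0.24 on the log2 scale). ASPM, a spindle pole protein, fell, from 43.4 ± 7.78 to 28.4 ± 1.68 FPKM (adjusted p = 0.0156).

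Regulators of entry and arrest included larger changes. Of 14 tested entry and exit regulators 7 rose and 1 fell. Cyclin A1 (CCNA1) went from 0.203 ± 0.0421 to 3.47 ± 0.637 FPKM. It reached the minimum mean of 1 FPKM only through the CuB samples, so its place among the tested genes, and among the 7, follows from that choice. It was called in all 12 other settings that tested it. Its log2 change ran from 1.79 to 3.95 over the settings and left-out libraries. The CDK1-inhibitory kinase PKMYT1 had a log2 change of 0.87, the Hippo kinase LATS2 one of 0.76 and the checkpoint kinase CHEK2 one of -0.41. PKMYT1 shares 31.6% of its exon bases with other genes. Of 13 tested DREAM and B-MYB genes 3 rose and 3 fell. MYBL2 (B-MYB) went from 44.7 ± 5.86 to 84.3 ± 7.33 FPKM (adjusted p = 0.00124), with LIN54 at 0.63 and NFYC at 0.44 on the log2 scale, while the repressor RBL2 (p130) fell from 14.0 ± 2.05 to 7.93 ± 1.01 FPKM (adjusted p = 0.00512), with E2F5 at -0.47 and RBBP4 at -0.41. Of 8 tested G2 arrest genes 5 rose and 2 fell. GADD45A, a stress protein that inhibits CDK1-cyclin B, went from 11.6 ± 1.148 to 97.9 ± 6.14 FPKM (adjusted p = 4.34e-06), GADD45B from 1.76 ± 0.334 to 21.5 ± 1.61 FPKM (adjusted p = 7.21e-06) and the CDK inhibitor CDKN1A from 26.8 ± 3.91 to 67.5 ± 2.99 FPKM (adjusted p = 2.13e-04). CCNG2, an atypical cyclin, had a log2 change of -0.54 (adjusted p = 0.0201).

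Of the genes named from these lists, 14 lost their call without at least 1 library. UBE2S, FZR1, NCAPH2, SKA2, PKMYT1, E2F5 and CCNG2 were not called when DMSO replicate 1 or 3, or else CuB replicate 2 or 3, was left out (adjusted p between 0.0572 and 0.142). ANAPC7, MAD1L1 and CIT were not called when DMSO replicate 1 or 3, or else CuB replicate 1 or 2 or 3, was left out (adjusted p between 0.0530 and 0.140). CDC26 and SPC24 were not called without CuB replicate 2 (adjusted p between 0.0556 and 0.0670). STIL was not called when DMSO replicate 1, or else CuB replicate 1 or 2, was left out (adjusted p between 0.0574 and 0.0627). ASPM was not called when DMSO replicate 1, or else CuB replicate 2 or 3, was left out (adjusted p between 0.0519 and 0.0613).

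**Figure D5:**
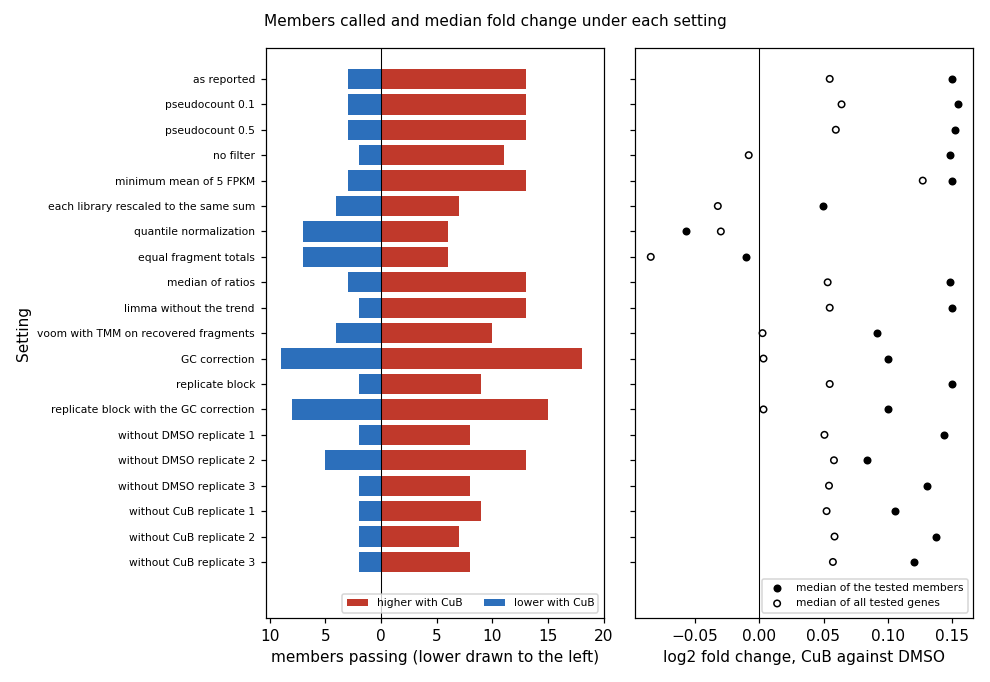
Left, how many members passed in each direction under each setting (lower drawn to the left); right, the median log2 change of the tested members and of all tested genes. The reported 13 higher and 3 lower become 6 and 7 with quantile normalization and with equal fragment totals, and 18 and 9 with the GC correction.

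Depth and cell identity can be set beside these results. Recovered fragment totals were 14845976 to 15797757 in DMSO and 15502971 to 16137093 in CuB (exact two-sided permutation p = 0.2, with 0.1 the smallest that 3 against 3 can give), and tested members had 98 to 13586 fragments per library. Of 12 melanoma markers 7 averaged at least 1 FPKM, SOX10 the highest, and their sum ranged from 255 to 362 FPKM in DMSO and from 331 to 419 in CuB. Within that sum, mostly SOX10, which did not pass, S100B was 3.98-fold and S100A1 2.51-fold lower with CuB, while NGFR was 5.73-fold, AXL 2.79-fold and MCAM 1.64-fold higher, all 5 called. The pigment markers PMEL, MLANA, TYR and DCT were each under 1 FPKM in both groups. Of 7 epithelial markers 3 averaged at least 1 FPKM and their sum was 44.8 to 50.7 FPKM in DMSO and 80.5 to 81.3 in CuB, most of it KRT18, with EPCAM and CDH1 near 0. The sum of 6 fibroblast markers was 3.80 to 4.31 FPKM in DMSO and 1.76 to 2.02 in CuB, and that of 5 immune markers 1.76 to 2.08 and 0.52 to 1.39, with PDGFRB and LYZ called lower. The sum of 4 endothelial markers was 0.905 to 1.153 FPKM in DMSO and 1.09 to 1.29 in CuB. PTPRC and CD3E were near 0. The part of these markers in the results was not tested.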

How the data were processed

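RNA from 6 samples of A375 cells (3 DMSO, 3 CuB) was analysed from the deposited table of 58735 genes, whose FPKM values were made by the authors. Per the submitters' processing notes, reads were placed on GRCh38. No source used here gives the aligner, counting tool or scaling. Per the labels' protocols, a TruSeq RNA kit was used, and it keeps no strand information. All gene identifiers, starts and ends were those of GENCODE 29, used for GC content and exon overlaps. 0 columns of sample values were left unused.

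The 13273 genes whose mean reached 1 FPKM were tested on the log2(FPKM + 1) scale, in R 4.3.3 with limma 3.58.1 (intensity trend, no replicate block, 4 residual degrees of freedom), with Benjamini-Hochberg adjustment at 0.05. A fold change on this scale understates changes of low genes. Through gene length and the step between low values, FPKM was converted to fragments, and 100% of values above 0 came out whole within 0.01. Replicates of a group differed by more than sampling noise (chi-square per degree of freedom 3.11 or more). The fit was tested on simulated data, where every true change called had the right direction. Small changes were mostly missed there, and false calls were in most runs a somewhat larger share than the nominal 0.05. The simulated data had far fewer changed genes than these, a single level of spread and no GC trend, so these shares may not hold here. Another 13 settings and 6 fits without a library were tried. Count tests on raw counts were not run, since the table has no raw counts.

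The members and lists were chosen with earlier results of these data known. Values in every sample are given for the largest changes, up to 8 in each direction, and for PLK1 to PLK4, CCNB1, CDK1, AURKA, TOP2A, MKI67 and FOXM1, with up to 3 genes in each direction from other lists. A gene that this rule takes and a marker are not reported here. Promoters are from RefSeq (GRCh38.p14). Figures were drawn with matplotlib 3.10.9.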

Additional observations from a re-analysis of the deposited data

How the results depend on the processing

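No called member changed direction under a setting tried. Genes changed among all tested, 5118 as reported, numbered 3250 at a minimum mean of 5 FPKM, 7743 with the GC correction, and 3262 to 5755 without single libraries. Members that rose, 13 as reported, numbered 7 when libraries were rescaled to 1 sum, 6 with quantile normalization, 6 with equal fragment totals and 7 to 13 without single libraries, the fewest without CuB replicate 2. Members that fell, 3 as reported, numbered 7 with quantile normalization, 7 with equal fragment totals, 9 with the GC correction and 2 to 5 without single libraries, the most without DMSO replicate 2. The members' median log2 change, 0.15, was 0.0499 at 1 sum, −0.057 with quantile normalization, −0.0104 with equal fragment totals and 0.0837 to 0.144 without single libraries. Other mitotic genes that rose, 34 as reported, numbered 18 with quantile normalization, 19 with equal fragment totals, 57 with the GC correction and 18 to 38 without single libraries. Those that fell, 10 as reported, numbered 17, 20, 18 and 4 to 15 in the same order. The share of higher calls among all changed genes was 59.5% as deposited, 46.7% at 1 sum, 47.2% with quantile normalization and 39.3% with equal fragment totals. These rescalings moved the median of all genes by −0.09, −0.08 and −0.14; the cause of the other changes was not tested.

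Whether replicate numbers pair the samples could not be told. Same-numbered samples had correlations of deviations of 0.269, 0.118 and −0.357, and not every sample correlated best with its own number. These deviations were taken before the GC correction and carry each library's GC trend, so they cannot decide the question. With the replicate block 9 members rose and 2 fell, with 4443 genes changed, and with the block and the GC correction 15 rose and 8 fell, with 17 other mitotic genes lower and 7367 genes changed.

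Of the 16 members called, 8 lost the call under at least 1 setting or without at least 1 library, and 12 of the other 28 gained one. Depth limits PLK3 in DMSO and PRC1 most.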

Other observations

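Genes of G1/S and DNA replication, which act earlier in the cycle, were measured in the same libraries. Of 31 tested genes 14 rose and 3 fell, 54.8% against 38.6% of all tested genes (45.2% higher against 22.9%, and 9.68% lower against 15.6%), with a median log2 change of 0.33, beside 0.05 over all genes. MCM5, a subunit of the replicative helicase, went from 11.1 ± 1.79 to 23.6 ± 2.33 FPKM (adjusted p = 0.00115), the licensing factor CDT1 from 16.1 ± 3.04 to 26.5 ± 4.15 FPKM (adjusted p = 0.0143) and thymidine kinase TK1 from 41.5 ± 11.6 to 69.9 ± 12.04 FPKM (adjusted p = 0.0257). CCNE1 (cyclin E1) fell from 8.97 ± 0.472 to 6.31 ± 1.01 FPKM (adjusted p = 0.0196), the helicase cofactor GINS1 from 17.4 ± 0.755 to 13.5 ± 0.716 FPKM (adjusted p = 0.0136) and the origin kinase CDC7 from 7.50 ± 0.658 to 5.94 ± 0.388 FPKM (adjusted p = 0.0454). MCM5 kept its call without each library. CDT1 and GINS1 were not called when DMSO replicate 1, or else CuB replicate 2, was left out (adjusted p between 0.0539 and 0.0740). CDC7 was not called when DMSO replicate 1 or 3, or else CuB replicate 1 or 2 or 3, was left out (adjusted p between 0.0955 and 0.138). CCNE1 was not called when DMSO replicate 1 or 3, or else CuB replicate 1 or 2, was left out (adjusted p between 0.0547 and 0.0778). TK1 was not called when DMSO replicate 1 or 3, or else CuB replicate 2 or 3, was left out (adjusted p between 0.0717 and 0.0838). The difference from the mitotic genes was not tested.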
